A study of Mus musculus with 9 samples.

Results

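Complement is a cascade of blood proteins that marks surfaces for clearance, and its genes were followed here in 3 kinds of mouse pancreatic neuroendocrine tumour. The set is a fixed list of 30 complement components, regulators and receptors, defined by gene names and chosen with earlier results of these data known, out of 21944 genes in the analysed table. All 30 have a row in it. Hc is the mouse gene of complement C5. The groups are liver metastases of N134-RHAMMB cells (metastases 1, 2 and 3), subcutaneous N134-RHAMMB tumours (1, 2 and 4) and subcutaneous N134 tumours (1, 2 and 3). The cell line N134 comes from a mouse pancreatic neuroendocrine tumour. N134-RHAMMB takes its name from RHAMMB, which is 1 isoform of RHAMM, a protein that binds hyaluronan and is encoded by Hmmr. Cells were placed under the skin or in the tail vein, so a comparison of metastases with subcutaneous tumours changes the site of growth together with the route, and the effects of each cannot be told apart. All hosts, those of the N134 tumours included, were NOD.Cg-PrkdcscidIl2rgtm1Wjl/SzJ (NSG) mice, which have no mature lymphocytes, natural killer cells included. The labels used here give no age, and they leave unstated whether the replicates of a group are separate animals. P-values therefore measure the spread between these libraries, part of which may be technical.

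In outline, complement starts in the classical pathway, where C1q binds antibody or other targets, in the lectin pathway, where mannose-binding lectins and ficolins bind sugars, or in the alternative pathway, which C3 and factor B sustain. All routes cleave C3, then C5, and end in a pore built from C6, C7, C8 and C9. Hepatocytes make most of the circulating proteins of the cascade, whereas macrophages are the main source of C1q. NOD mice, the background of these hosts, are known for an Hc allele that yields no C5 protein, and the values below are transcripts, not protein.

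The table gives FPKM, fragments per kilobase of transcript per mega mapped fragments, a level that is scaled for gene length and library size. Depth, estimated from the FPKM that 1 fragment is worth, was 14.4 to 17.9 M fragments per library, at which 1 fragment in a 2 kb transcript is worth 0.0279 to 0.0348 FPKM. All 14 islet and neuroendocrine genes listed were at 1 FPKM or more in every library. Hmmr was at 36.0, 40.0 and 43.3 FPKM in the metastases, 50.2, 51.3 and 49.2 FPKM in the N134-RHAMMB tumours, and 44.9, 39.2 and 42.7 FPKM in N134 tumours, and it passed in none of the 3 comparisons. The table does not give isoforms, so these levels do not check the cell line's label. All 20 hepatocyte genes listed reached 1 FPKM in each metastasis, against 10 or 11 in the N134-RHAMMB tumours and 9 to 11 in N134 tumours. Without Ttr and Rbp4, left out of the sum after their values were seen because they were high in all 3 groups, the hepatocyte genes summed to 4880 to 5286 FPKM in the metastases, 81.0 to 129 FPKM in the N134-RHAMMB tumours and 59.9 to 119 FPKM in N134 tumours. Ambp stayed in the sum, although it too was high in all 3 groups. It was at 148 to 190 FPKM in the metastases and 34.9 to 88.8 FPKM in the subcutaneous tumours. In each subcutaneous tumour it was the largest value in that sum. Alb, albumin, was at 1504, 1410.4 and 1609 FPKM in the metastases. The 18 macrophage genes summed to 209 to 371 FPKM in the metastases, 336 to 482 FPKM in the N134-RHAMMB tumours and 494 to 827 FPKM in N134 tumours. Skeletal muscle genes summed to 181 FPKM in N134-RHAMMB tumour 2, 222 FPKM in N134-RHAMMB tumour 4 and no more than 19.6 FPKM in any other library. In bulk tissue, fewer cells of a type and less RNA per cell cannot be told apart.

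The metastases differed from both subcutaneous groups in most complement genes, and between the subcutaneous groups only C3 passed the test. Differences are log2(FPKM + 1) values from limma, fitted over the 12854 genes that reached 1 FPKM in 3 or more of the 9 libraries, with Benjamini-Hochberg adjustment over all of them and a threshold of 0.05. 28 of the 30 complement genes could be tested. C7 and Cd46 could not. 10 of the 28 reached the filter only through the metastases (Hc, C6, C8a, C8b, C9, Cfi, Masp1, Masp2, Mbl1 and C4bp), so they had to differ and their count is a description. Against N134-RHAMMB tumours, 20 of 28 were higher in the metastases, 0 lower, and 8 did not pass. The background was 5.04% of all genes higher, 1.52% lower and 6.56% either way. At an unadjusted p under 0.05, limma gave 20 higher and 1 lower of the 28, where 8.13% of all genes were higher and 8.53% lower. Against N134 tumours, 19 were higher in the metastases and 6 lower, where 5.69% of all genes were higher, 4.23% lower and 9.93% either way. At an unadjusted p under 0.05 these were 20 higher and 7 lower, where 9.72% of all genes were higher and 11.7% lower. Of the 18 genes that reached 1 FPKM in a subcutaneous tumour too, 10 were higher and 0 lower in the metastases against N134-RHAMMB tumours, and 9 were higher and 6 lower against N134 tumours. Mbl2, 1 of these 18 and higher in both, reached 1 FPKM outside the metastases in N134-RHAMMB tumour 1 alone. It therefore also needed the metastases to pass the filter. The median log2 difference of these 18 was 1.21 against N134-RHAMMB tumours and 0.71 against N134 tumours, beside -0.06 and -0.03 over all genes. 10 of the 18 were higher in every metastasis than in any N134-RHAMMB tumour, where 8.8% of all genes had groups apart in that direction. The comparisons share their groups, so their counts are not independent of each other.

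**Figure D1:**
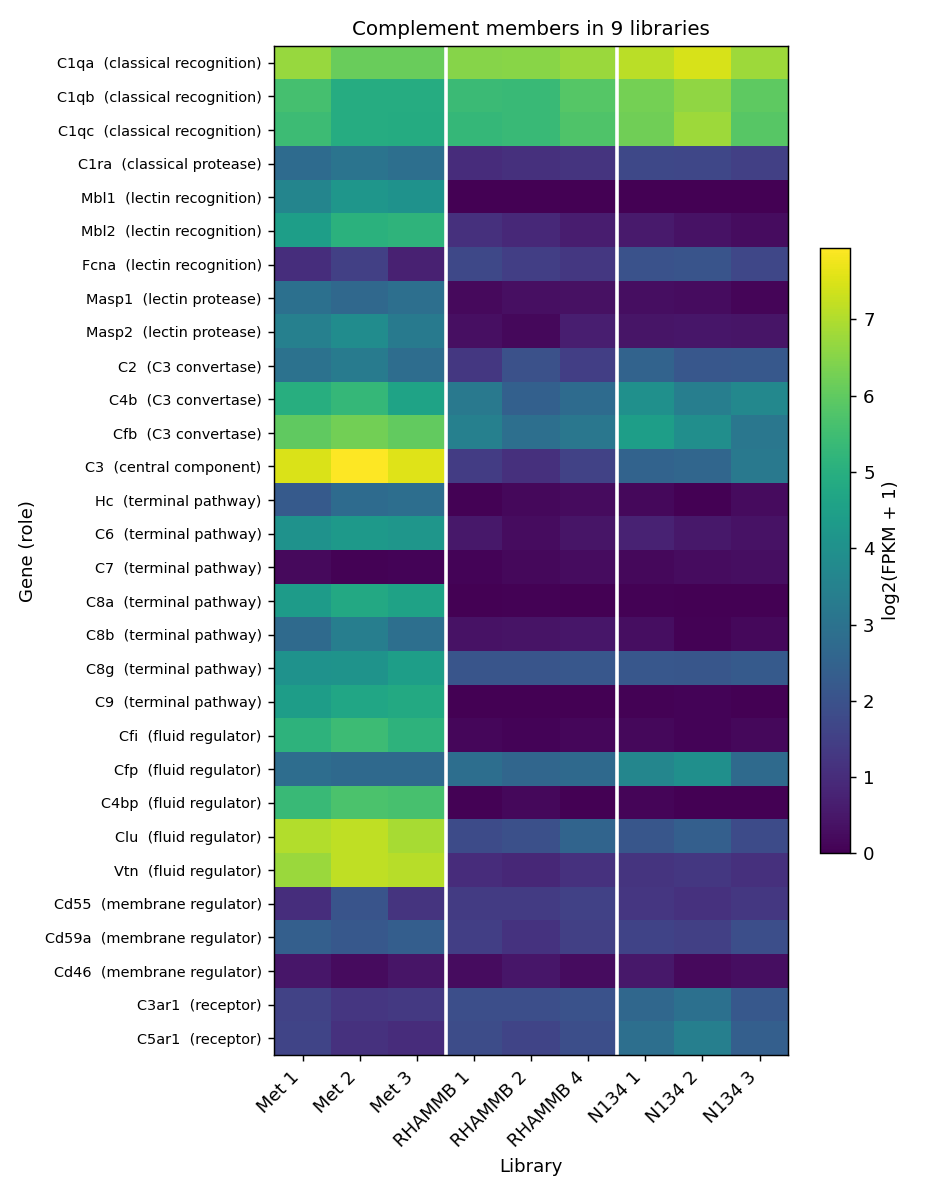
Heat map of log2(FPKM + 1) of the 30 genes (rows, by role) in the 9 libraries (columns), with the metastases left, N134-RHAMMB tumours in the middle and N134 tumours right. Lighter cells are higher levels. C3 averaged 202 FPKM in the metastases, whereas C1qa led the subcutaneous groups with means of 95.7 FPKM in the N134-RHAMMB tumours and 140.4 FPKM in N134 tumours.

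Promoters of 5 of these genes are shown here because the genes stand for the patterns below. C3 is the central component, C9, Hc and C4bp were near 0 in the subcutaneous tumours, and C1qb was lower in the metastases than in N134 tumours. Each is 300 bases from RefSeq (GRCm38.p6), 250 before the start of the gene and 50 after it, written 5′ to 3′ on the gene's strand, and capitals mark a match to one of the motifs given after them.
C3 (chr17:57228087-57228386, minus strand): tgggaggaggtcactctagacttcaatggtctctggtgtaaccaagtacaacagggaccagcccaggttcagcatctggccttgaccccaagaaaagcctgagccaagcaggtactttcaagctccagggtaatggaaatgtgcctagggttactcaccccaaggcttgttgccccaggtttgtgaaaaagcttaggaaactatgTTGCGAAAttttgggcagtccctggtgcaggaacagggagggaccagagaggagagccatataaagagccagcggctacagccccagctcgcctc
C9 (chr15:6445096-6445395, plus strand): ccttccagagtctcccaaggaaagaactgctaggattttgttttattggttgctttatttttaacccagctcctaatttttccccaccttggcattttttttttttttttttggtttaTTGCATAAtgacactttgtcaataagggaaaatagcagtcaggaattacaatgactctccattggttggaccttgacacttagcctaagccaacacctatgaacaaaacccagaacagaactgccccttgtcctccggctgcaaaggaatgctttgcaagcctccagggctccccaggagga
C4bp (chr1:130661569-130661868, minus strand): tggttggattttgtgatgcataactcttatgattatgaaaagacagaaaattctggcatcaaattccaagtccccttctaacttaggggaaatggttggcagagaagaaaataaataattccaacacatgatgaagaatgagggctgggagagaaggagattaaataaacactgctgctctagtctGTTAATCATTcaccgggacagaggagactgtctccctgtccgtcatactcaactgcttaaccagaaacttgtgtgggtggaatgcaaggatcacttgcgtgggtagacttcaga
Hc (chr2:35061363-35061662, minus strand): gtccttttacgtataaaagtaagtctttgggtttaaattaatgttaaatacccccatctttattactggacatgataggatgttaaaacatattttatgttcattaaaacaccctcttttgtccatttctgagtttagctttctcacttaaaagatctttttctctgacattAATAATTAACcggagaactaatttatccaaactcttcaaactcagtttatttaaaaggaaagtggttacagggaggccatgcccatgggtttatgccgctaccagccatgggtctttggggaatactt
C1qb (chr4:136886151-136886450, minus strand): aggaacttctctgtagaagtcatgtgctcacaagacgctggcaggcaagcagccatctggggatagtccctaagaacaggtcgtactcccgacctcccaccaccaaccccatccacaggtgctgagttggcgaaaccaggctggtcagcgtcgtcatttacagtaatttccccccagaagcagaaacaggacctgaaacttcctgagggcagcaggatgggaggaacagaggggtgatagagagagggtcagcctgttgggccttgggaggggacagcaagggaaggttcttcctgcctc
RefSeq promoters were matched by symbol for 23 of the 30 genes. 6 motifs were searched on both strands, among 32851 mouse promoters of the same length. The motif of the hepatocyte factor HNF1 was in the promoters of C4bp (GTTAATCATT) and Hc (AATAATTAAC, on the opposite strand) and in 0.399% of all promoters. The letters TTGCNNAA, those of C/EBP, were in C1ra, C3 and C9 and in 10.8% of all promoters. None of the 23 held CAAAGTNCA (HNF4, 1.41% of all), TGTTTAC (forkhead, 3.65%) or the motif of NF-kB (1.20%). The hexamer AAGAAA, left in lower case, was in 7 of the 23 (C1qc, C3, C3ar1, C4bp, C8g, Cd59a and Vtn) and in 27.0% of all promoters. A match is a description of these letters only.

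C1q, the recognition molecule of the classical pathway, is built from 3 chains whose genes C1qa, C1qb and C1qc lie side by side on chromosome 4 (C1qa at chr4:136895917-136898803, GRCm38). These were the most abundant complement transcripts in both subcutaneous groups. C1qa was at 103, 69.4 and 68.1 FPKM in the metastases, 88.4, 91.4 and 107 FPKM in the N134-RHAMMB tumours, and 137, 175 and 108 FPKM in N134 tumours. C1qb was at 47.5, 29.4 and 29.2 FPKM in the metastases, 41.9, 41.0 and 56.2 FPKM in the N134-RHAMMB tumours, and 77.0, 98.1 and 61.6 FPKM in N134 tumours. C1qc was at 42.3, 29.1 and 28.6 FPKM in the metastases, 38.2, 40.9 and 52.3 FPKM in the N134-RHAMMB tumours, and 73.5, 108 and 58.1 FPKM in N134 tumours. For all 3 chains the metastases lay below every N134 tumour, with metastasis 1 the highest of its group, and they overlapped the N134-RHAMMB tumours. The log2 difference between the metastases and N134 tumours was -0.80 (SE 0.20, adjusted p = 0.0287) for C1qa, -1.15 (SE 0.22, adjusted p = 0.00751) for C1qb and -1.21 (SE 0.23, adjusted p = 0.00645) for C1qc. Against N134-RHAMMB tumours the differences were -0.27 (SE 0.20, adjusted p = 0.578) for C1qa, -0.40 (SE 0.22, adjusted p = 0.431) for C1qb and -0.39 (SE 0.23, adjusted p = 0.459) for C1qc, and none passed. The call for C1qa against N134 tumours was lost in 4 of 9 fits that left out 1 library (metastasis 2 or 3, or N134 tumour 1 or 2), at adjusted p = 0.0612 to 0.112.

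Macrophage gene levels are set beside those of C1q. Of the 18 macrophage genes, 0 passed between the metastases and N134-RHAMMB tumours in limma, where 6.56% of all genes passed either way. Against N134 tumours 12 were lower in the metastases, where 4.23% of all genes were lower. The ratio of the summed C1q chains to the summed macrophage genes was 0.558 ± 0.0477 in the metastases, 0.480 ± 0.0286 in the N134-RHAMMB tumours and 0.470 ± 0.0146 in N134 tumours (SD, n = 3 each). Its exact 2-sided permutation p was 0.1 for the metastases against either group, the smallest that 3 against 3 libraries allow, and 0.7 between the subcutaneous groups. The C1q chains made up 12.0% to 20.7% of the summed FPKM of the 30 genes in the metastases, 77.4% to 81.9% in the N134-RHAMMB tumours and 76.5% to 82.2% in N134 tumours. The part of macrophages in the C1q differences was not tested.

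**Figure D2:**
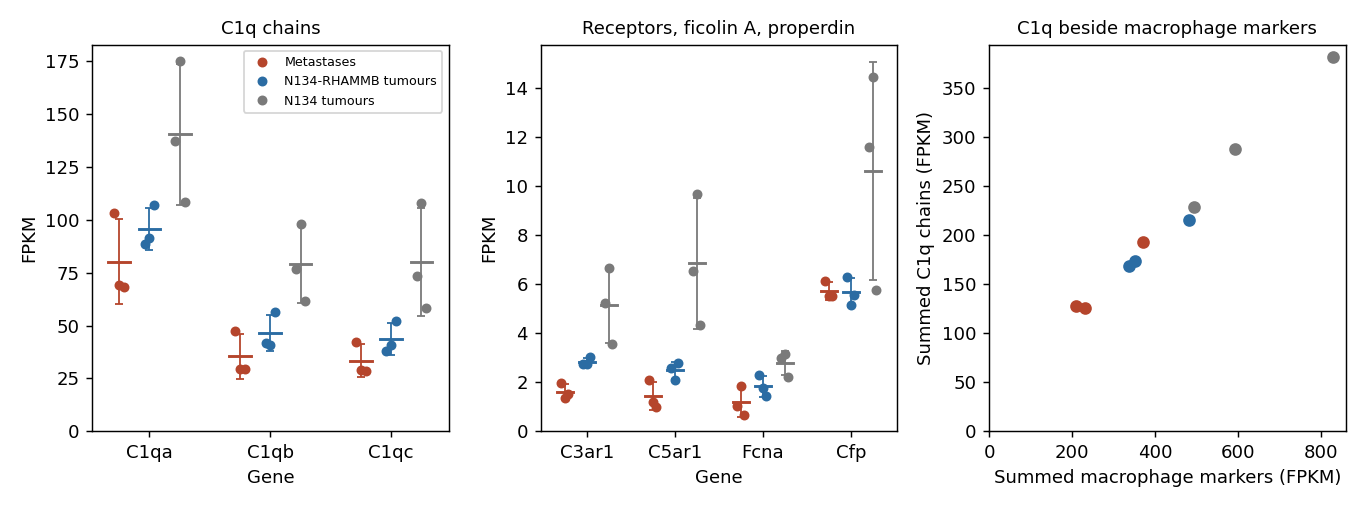
FPKM of the C1q chains (left panel) and of C3ar1, C5ar1, Fcna and Cfp (middle panel), with points for libraries and bars for the mean ± SD of 3, metastases left, N134-RHAMMB tumours in the middle and N134 tumours right, and summed FPKM of C1qa, C1qb and C1qc against summed FPKM of the 18 macrophage genes (right panel). The metastases sit at macrophage sums of 209 to 371 FPKM and the N134 tumours at 494 to 827 FPKM.

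C1r and C1s are the proteases that C1q carries, and C2 and C4b supply the classical and lectin C3 convertase. C1ra was at 5.87, 7.22 and 6.46 FPKM in the metastases, 1.03, 1.14 and 1.28 FPKM in the N134-RHAMMB tumours, and 2.27, 2.21 and 1.84 FPKM in N134 tumours, a log2 difference of 1.80 (SE 0.15, adjusted p = 9.74e-06) against N134-RHAMMB tumours and 1.27 (SE 0.15, adjusted p = 1.70e-04) against N134 tumours. The 3 groups did not overlap, with N134-RHAMMB tumours lowest. C4b was at 30.4, 37.9 and 23.3 FPKM in the metastases, 8.31, 4.41 and 5.91 FPKM in the N134-RHAMMB tumours, and 14.8, 9.63 and 12.1 FPKM in N134 tumours. Its groups also kept apart in that order, with log2 differences of 2.14 (SE 0.24, adjusted p = 1.47e-04) against N134-RHAMMB tumours and 1.25 (SE 0.24, adjusted p = 0.00671) against N134 tumours. C2 was at 6.89, 8.86 and 6.21 FPKM in the metastases, 1.41, 2.90 and 1.75 FPKM in the N134-RHAMMB tumours, and 4.76, 3.50 and 3.52 FPKM in N134 tumours. It passed against N134-RHAMMB tumours, at a log2 difference of 1.48 (SE 0.21, adjusted p = 0.00106), and not against N134 tumours, at 0.75 (SE 0.21, adjusted p = 0.0515). Cfb, factor B, the protease of the alternative convertase, was at 62.9, 74.5 and 63.8 FPKM in the metastases, 9.98, 6.52 and 7.82 FPKM in the N134-RHAMMB tumours, and 20.9, 14.0 and 7.92 FPKM in N134 tumours. Every metastasis was above every subcutaneous tumour for Cfb, by a log2 difference of 2.91 (SE 0.28, adjusted p = 4.02e-05) against N134-RHAMMB tumours and 2.24 (SE 0.28, adjusted p = 3.21e-04) against N134 tumours. C2 and Cfb lie next to each other on chromosome 17 (C2 at chr17:34862604-34898265, Cfb at chr17:34856374-34862518), and the annotation places Gm20547 on the same strand over both, so reads may be split among the 3. C4b and C1ra have near-identical copies (C4a, C1rb), so their values are uncertain too.

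C3, the protein on which all routes converge, (chr17:57203970-57228136, minus strand) was the most abundant complement transcript of the metastases, rank 277 among all genes by mean FPKM. It was at 178, 244 and 185 FPKM in the metastases, 1.65, 1.15 and 1.99 FPKM in the N134-RHAMMB tumours, and 4.82, 5.14 and 8.18 FPKM in N134 tumours. Metastasis 2 was highest, and no library of 1 group reached the range of another. The log2 difference was 6.29 (SE 0.21, adjusted p = 8.77e-09) between the metastases and N134-RHAMMB tumours and 4.87 (SE 0.21, adjusted p = 5.56e-08) between the metastases and N134 tumours. C3 made up 19.1% to 22.9% of the summed FPKM of the 30 genes in the metastases, 0.540% to 0.757% in the N134-RHAMMB tumours and 1.11% to 2.81% in N134 tumours.

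The lectin pathway proteins were higher in the metastases, except Fcna. Mbl1, mannose-binding lectin A, was at 11.2, 16.8 and 15.6 FPKM in the metastases and had listed values of 0 in all 6 subcutaneous tumours (adjusted p = 5.26e-08 against N134-RHAMMB tumours and 5.45e-08 against N134 tumours). Mbl2, mannose-binding lectin C, was at 20.7, 32.9 and 34.5 FPKM in the metastases, 1.15, 0.899 and 0.545 FPKM in the N134-RHAMMB tumours, and 0.481, 0.307 and 0.191 FPKM in N134 tumours, with a log2 difference of 4.004 (SE 0.22, adjusted p = 3.70e-07) against N134-RHAMMB tumours and 4.49 (SE 0.22, adjusted p = 1.57e-07) against N134 tumours. Both were lowest in metastasis 1 among the metastases. The proteases that act after recognition went the same way as the lectins. Masp1 was at 6.58, 5.46 and 6.46 FPKM in the metastases, 0.148, 0.255 and 0.272 FPKM in the N134-RHAMMB tumours, and 0.240, 0.200 and 0.0837 FPKM in N134 tumours, and Masp2 at 9.89, 13.6 and 8.64 FPKM in the metastases, 0.247, 0.127 and 0.601 FPKM in the N134-RHAMMB tumours, and 0.361, 0.410 and 0.369 FPKM in N134 tumours. Their log2 differences against N134-RHAMMB tumours were 2.55 (SE 0.14, adjusted p = 5.36e-07) for Masp1 and 3.14 (SE 0.20, adjusted p = 1.16e-06) for Masp2, and against N134 tumours 2.61 (SE 0.14, adjusted p = 4.38e-07) and 3.06 (SE 0.20, adjusted p = 1.41e-06). Mbl1, Masp1 and Masp2 reached the filter only through the metastases, so they had to differ and their p-values are a description. Rtp4 overlaps Masp1, and Tardbp overlaps Masp2, on the opposite strand in the annotation. Fcna, ficolin A, which macrophages make in mice, stood apart from the other lectins. It was at 1.04, 1.85 and 0.648 FPKM in the metastases, 2.28, 1.77 and 1.45 FPKM in the N134-RHAMMB tumours, and 2.99, 3.15 and 2.21 FPKM in N134 tumours. Its log2 difference against N134 tumours was -0.82 (SE 0.22, adjusted p = 0.0416), and against N134-RHAMMB tumours -0.40 (SE 0.22, adjusted p = 0.423), where the groups overlap. The Fcna call was lost in 8 of 9 fits without 1 library, all but that without metastasis 2, at adjusted p = 0.0531 to 0.149.

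The genes of the lytic pore, C7 aside, were higher in the metastases, and apart from C8g they stayed below 1 FPKM in every subcutaneous tumour. Hc, which encodes C5 (chr2:34983331-35061438, minus strand), was at 3.71, 5.84 and 6.25 FPKM in the metastases, 0.0312, 0.129 and 0.168 FPKM in the N134-RHAMMB tumours, and 0.121, 0.0195 and 0.169 FPKM in N134 tumours. C6 was at 15.6, 18.6 and 17.1 FPKM in the metastases, 0.424, 0.191 and 0.363 FPKM in the N134-RHAMMB tumours, and 0.702, 0.418 and 0.295 FPKM in N134 tumours. These values put Hc below C6 in every metastasis. C8a was at 19.3, 26.7 and 22.9 FPKM in the metastases, 0, 0.0313 and 0.0180 FPKM in the N134-RHAMMB tumours, and 0.0317, 0 and 0 FPKM in N134 tumours. C8b, its neighbour on chromosome 4, was at 5.71, 9.56 and 6.49 FPKM in the metastases, 0.305, 0.349 and 0.393 FPKM in the N134-RHAMMB tumours, and 0.217, 0.0364 and 0.137 FPKM in N134 tumours. Transcripts of C8a were thus 2.79 to 3.52 times as abundant as those of C8b per length in the metastases. Gm17662 overlaps C8a on the opposite strand in the annotation, so the values of C8a are uncertain. C9, the chain that polymerises into the pore, was at 20.3, 24.8 and 27.2 FPKM in the metastases, was listed at 0 in each of the 3 N134-RHAMMB tumours, and was at 0.0262, 0.0516 and 0 FPKM in N134 tumours.

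C8g, the gamma chain of C8, was at 15.6, 16.0 and 21.04 FPKM in the metastases, 3.26, 3.29 and 3.50 FPKM in the N134-RHAMMB tumours, and 3.48, 3.35 and 3.79 FPKM in N134 tumours. It was the 1 terminal gene above 1 FPKM in all subcutaneous tumours, and it overlaps Fbxw5 on the opposite strand in the annotation. The log2 differences between the metastases and N134-RHAMMB tumours were 2.48 (SE 0.18, adjusted p = 5.10e-06) for Hc, 3.77 (SE 0.16, adjusted p = 5.84e-08) for C6, 4.55 (SE 0.15, adjusted p = 9.84e-09) for C8a, 2.59 (SE 0.18, adjusted p = 3.57e-06) for C8b and 2.08 (SE 0.15, adjusted p = 3.46e-06) for C8g. Against N134 tumours they were 2.48 for Hc, 3.63 for C6, 4.56 for C8a, 2.84 for C8b, 2.02 for C8g and 4.60 for C9, all past the threshold. The adjusted p of C9 was 6.99e-09 against N134-RHAMMB tumours. Hc, C6, C8a, C8b and C9 reached the filter only through the metastases, so they had to differ and their p-values are a description. Sizes near 0 depend on the pseudocount: with 0.1 in place of 1 the log2 difference against N134-RHAMMB tumours was 4.71 for Hc, 7.63 for C8a, 4.29 for Masp1 and 4.80 for Masp2. C7, the remaining pore component, was at 0.0421 to 0.16 FPKM in the metastases and 0.0478 to 0.216 FPKM in the subcutaneous tumours, and was not tested.

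**Figure D3:**
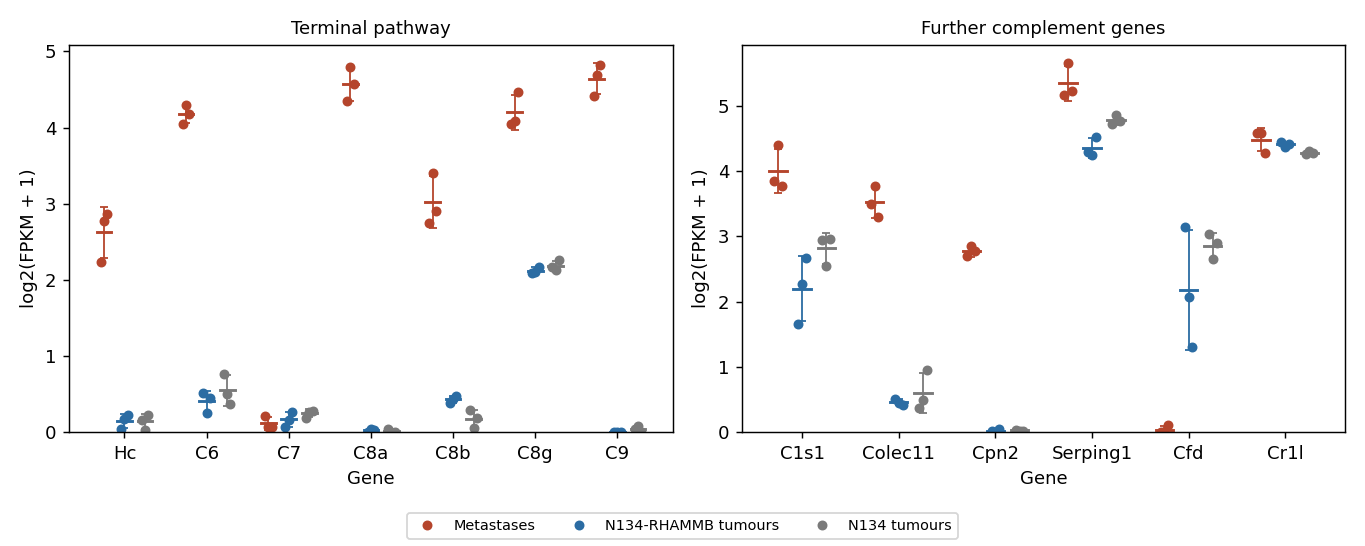
Levels as log2(FPKM + 1) of the terminal pathway genes (left panel) and of 6 further complement genes (right panel), with points for libraries and bars for the mean ± SD of 3, metastases left, N134-RHAMMB tumours in the middle and N134 tumours right. C8a reaches 19.3 to 26.7 FPKM in the metastases, and Cfd is at 0 to 0.0784 FPKM there.

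Among the soluble regulators, 4 of 5 were higher in the metastases. The shares over all genes were 5.04% against N134-RHAMMB tumours and 5.69% against N134 tumours. Cfi and C4bp reached the filter only through the metastases, so they had to differ and their p-values are a description. Cfi, the protease that inactivates C3b and C4b, was at 33.7, 42.9 and 34.4 FPKM in the metastases, 0.0906, 0.0602 and 0.0966 FPKM in the N134-RHAMMB tumours, and 0.114, 0.0569 and 0.121 FPKM in N134 tumours. C4bp, a cofactor of factor I (chr1:130634773-130661632, minus strand), was at 40.3, 50.3 and 48.3 FPKM in the metastases, 0.0379, 0.118 and 0 FPKM in the N134-RHAMMB tumours, and 0.0782, 0.0156 and 0 FPKM in N134 tumours. Both were at or near 0 in every subcutaneous tumour, and metastasis 2 had the highest level of each. Vtn, vitronectin, and Clu, clusterin, bind the forming pore and keep it out of membranes. Vtn was at 106, 144 and 134.01 FPKM in the metastases, 1.02, 0.847 and 1.20 FPKM in the N134-RHAMMB tumours, and 1.28, 1.44 and 1.12 FPKM in N134 tumours. Clu was at 129, 143 and 118 FPKM in the metastases, 2.49, 2.81 and 4.91 FPKM in the N134-RHAMMB tumours, and 3.37, 4.33 and 2.48 FPKM in N134 tumours. In the metastases they came next after C3 among the 30 genes, Clu ahead of Vtn by mean. The log2 differences against N134-RHAMMB tumours were 5.13 (SE 0.15, adjusted p = 3.04e-09) for Cfi, 5.49 (SE 0.15, adjusted p = 2.50e-09) for C4bp, 5.99 (SE 0.15, adjusted p = 2.33e-09) for Vtn and 4.93 (SE 0.22, adjusted p = 7.86e-08) for Clu. Against N134 tumours they were 5.11 for Cfi, 5.51 for C4bp, 5.81 for Vtn and 4.91 for Clu, all past the threshold. With a pseudocount of 0.1 the difference of C4bp against N134-RHAMMB tumours was 8.32.

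Cfp, properdin, which stabilises the alternative convertase and is made by myeloid cells, was the soluble regulator that did not pass. It was at 6.13, 5.505 and 5.52 FPKM in the metastases, 6.31, 5.16 and 5.54 FPKM in the N134-RHAMMB tumours, and 11.6, 14.5 and 5.76 FPKM in N134 tumours. The metastases lay within the range of N134-RHAMMB tumours, and N134 tumour 3 lay near both. The log2 difference against N134 tumours was -0.71 (SE 0.26, adjusted p = 0.138). In the fit without N134 tumour 3 this difference did pass, with the metastases lower.

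Membrane regulators protect host cells, and 3 of them are among the 30 genes. Cr1l, also called Crry, a membrane regulator outside the 30, was at 18.3 to 23.0 FPKM in the metastases, 19.7 to 20.8 FPKM in the N134-RHAMMB tumours and 18.1 to 18.8 FPKM in N134 tumours. Cd59a, which blocks the joining of C9, was at 4.26, 3.60 and 4.19 FPKM in the metastases, 1.79, 1.23 and 1.83 FPKM in the N134-RHAMMB tumours, and 2.03, 1.81 and 2.72 FPKM in N134 tumours. The metastases were above every subcutaneous tumour, at log2 differences of 0.94 (SE 0.17, adjusted p = 0.00516) against N134-RHAMMB tumours and 0.66 (SE 0.17, adjusted p = 0.0333) against N134 tumours. The call against N134 tumours was lost in 5 of 9 fits without 1 library (metastasis 1 or 3, N134-RHAMMB tumour 1, or N134 tumour 1 or 2), at adjusted p = 0.0569 to 0.137. Without N134-RHAMMB tumours 2 and 4, which hold muscle transcripts, the adjusted p was 0.168 against the remaining N134-RHAMMB tumour and 0.0622 against N134 tumours. Cd55, which speeds the decay of convertases, was at 1.06, 3.17 and 1.30 FPKM in the metastases, 1.62, 1.62 and 1.92 FPKM in the N134-RHAMMB tumours, and 1.38, 1.19 and 1.42 FPKM in N134 tumours, and passed in no comparison. Cd46, a cofactor of factor I that in mice is largely limited to the testis, was at 0.17 to 0.404 FPKM in the metastases and 0.153 to 0.438 FPKM in the subcutaneous tumours, and was not tested.

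The receptors for the fragments C3a and C5a, carried by myeloid cells, were lower in the metastases than in N134 tumours. C3ar1 was at 1.96, 1.37 and 1.504 FPKM in the metastases, 2.73, 2.77 and 3.01 FPKM in the N134-RHAMMB tumours, and 5.25, 6.67 and 3.57 FPKM in N134 tumours. C5ar1 was at 2.102, 1.20 and 1.01 FPKM in the metastases, 2.57, 2.099 and 2.78 FPKM in the N134-RHAMMB tumours, and 6.54, 9.69 and 4.34 FPKM in N134 tumours. N134 tumour 2 was the highest library for both. Their log2 differences between the metastases and N134 tumours were -1.21 (SE 0.20, adjusted p = 0.00238) for C3ar1 and -1.66 (SE 0.26, adjusted p = 0.00175) for C5ar1. Against N134-RHAMMB tumours these were -0.56 (SE 0.20, adjusted p = 0.162) and -0.54 (SE 0.26, adjusted p = 0.339). The metastases lay below every N134-RHAMMB tumour for C3ar1, and the groups touched for C5ar1. Macrophage sums, given above, were lower in every metastasis than in any N134 tumour, and the part of macrophages was not tested.

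**Figure D4:**
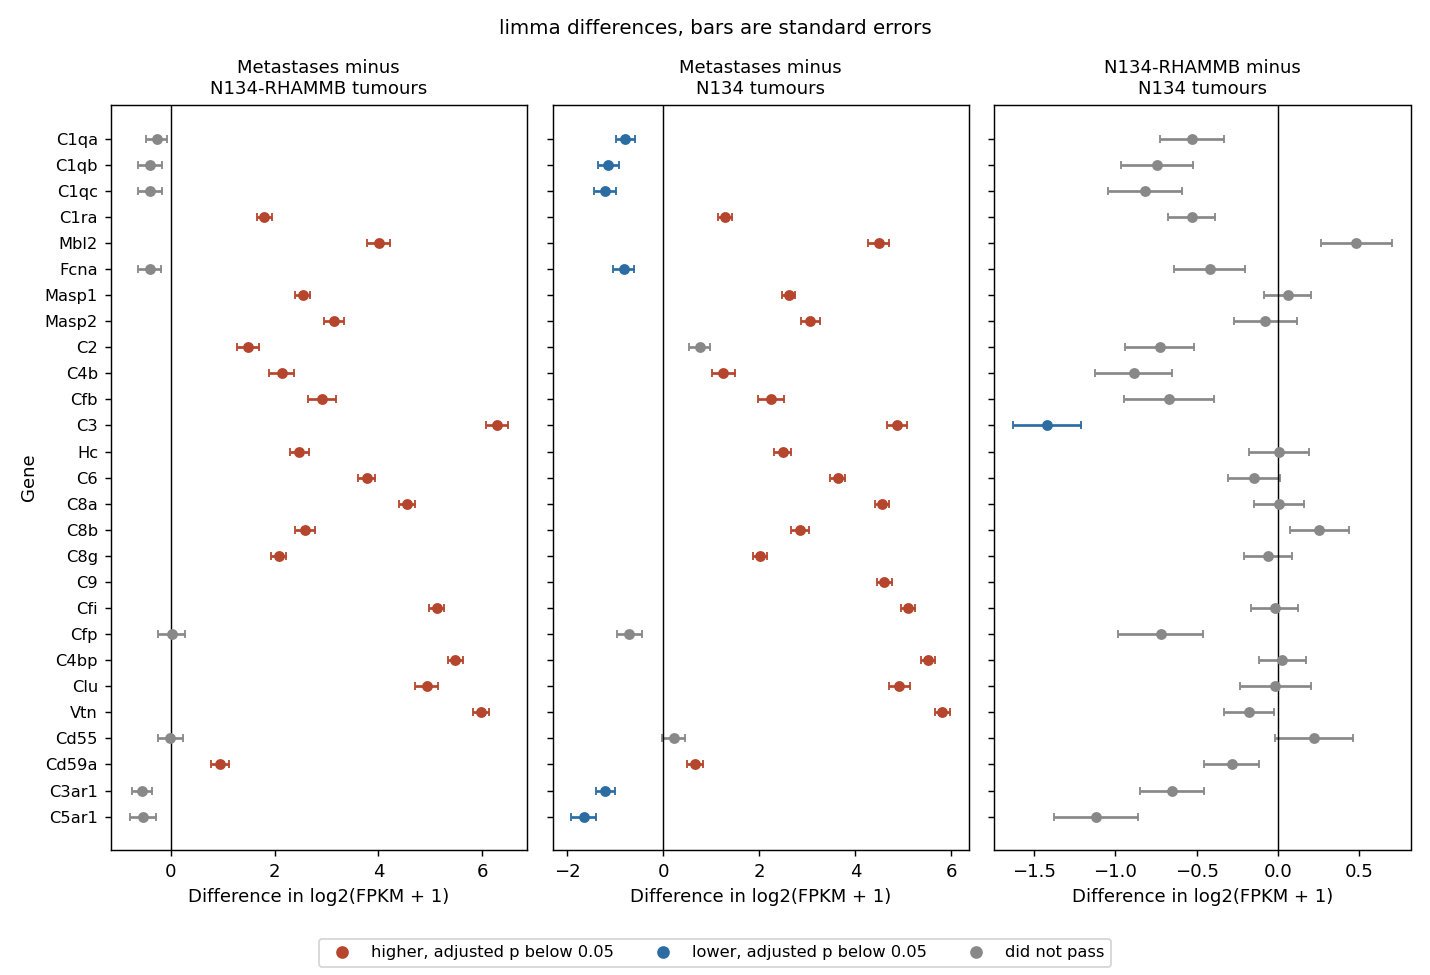
Log2 differences of FPKM + 1 with their standard errors for the tested complement genes, ordered by role, without Mbl1 and, where N134-RHAMMB tumours enter, without C9, which are listed at 0 there, for metastases against N134-RHAMMB tumours, metastases against N134 tumours and N134-RHAMMB against N134 tumours. C3 lies at 6.29, 4.87 and -1.42 in these 3 comparisons.

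The 20 genes that were higher in the metastases than in N134-RHAMMB tumours were compared among the 3 metastases. For these genes the highest metastasis was 1.18 (Cd59a) to 1.68 (Hc) times the lowest, with a median of 1.36 times. Metastasis 2 had the highest level for 14 of the 20, metastasis 3 for 4 and metastasis 1 for 2. The hepatocyte sum without Ttr and Rbp4 was likewise highest in metastasis 2 and lowest in metastasis 1. 19 of 20 hepatocyte genes were higher in the metastases than in the N134-RHAMMB tumours, where 5.04% of all genes were higher. Against N134 tumours 18 of 20 were higher, where the share was 5.69%. Ahsg, Apoh, Cps1, Fga, Fgb, Fgg, Hpx and Serpinc1 reached the filter only through the metastases, so they had to differ. The part of liver cells in the higher complement levels was not tested.

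N134-RHAMMB and N134 tumours, grown at the same site, were compared with 1 of the 28 genes past the threshold. C3 was lower in N134-RHAMMB tumours, by a log2 difference of -1.42 (SE 0.21, adjusted p = 0.0365), where 0.117% of all genes were lower, 0.0778% higher and 0.194% either way. 0 of the 28 were higher in limma. At an unadjusted p under 0.05, 11 of the 28 were lower and 1 higher, where 7.03% of all genes were lower, 5.8% higher and 12.8% either way. The C3 call was lost in 7 of 9 fits without 1 library, all but those without metastasis 1 or 2, at adjusted p = 0.0512 to 0.202, and adjusted p was 0.393 without N134-RHAMMB tumours 2 and 4. The median log2 difference was -0.16 over the 28 genes and -0.59 over the 18 that reached 1 FPKM in a subcutaneous tumour, beside 0.01 over all genes.

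9 genes were lower in every N134-RHAMMB tumour than in any N134 tumour, where 11.3% of all genes had groups apart in that direction. They were C1qa, C1qb, C1qc, C1ra, C2, C3, C4b, C3ar1 and C5ar1. C8b, Cd55 and Mbl2 were higher in every N134-RHAMMB tumour, where the share over all genes was 14.0%. The log2 differences were -0.53 (SE 0.20, adjusted p = 0.310) for C1qa, -0.74 (SE 0.22, adjusted p = 0.212) for C1qb, -0.82 (SE 0.23, adjusted p = 0.189) for C1qc and -1.12 (SE 0.26, adjusted p = 0.140) for C5ar1. C4b gave -0.89 (SE 0.24, adjusted p = 0.174), C2 -0.73 (SE 0.21, adjusted p = 0.207), C3ar1 -0.65 (SE 0.20, adjusted p = 0.217) and C1ra -0.53 (SE 0.15, adjusted p = 0.180). Except for C3, none passed. Cfb gave -0.67 (SE 0.28, adjusted p = 0.354) and Cfp -0.72 (SE 0.26, adjusted p = 0.287), with overlapping groups. The 17 fibroblast genes had sums of 510 to 821 FPKM in the N134-RHAMMB tumours and 984 to 1315 FPKM in N134 tumours. Of these genes, 2 passed as lower in N134-RHAMMB tumours, where 0.117% of all genes were lower. Macrophage sums were 336 to 482 FPKM in the N134-RHAMMB tumours and 494 to 827 FPKM in N134 tumours. Neither cell type's part in these values was tested.

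A further list of 32 complement genes outside the 30 had 29 rows, of which 21 could be tested. 9 were higher and 1 lower in the metastases against N134-RHAMMB tumours, where 5.04% of all genes were higher and 1.52% lower. Against N134 tumours 10 were higher and 3 lower, where the shares were 5.69% and 4.23%. 6 of the 21, Colec11, Cpn2, C1s2 and C1rl among them, reached the filter only through the metastases, so they had to differ, and their values are a description. Of the other 15, 3 were higher and 1 lower against N134-RHAMMB tumours, and 4 were higher and 3 lower against N134 tumours. Colec11, a soluble collectin of the lectin pathway, was at 10.3, 12.7 and 8.81 FPKM in the metastases, 0.417, 0.366 and 0.335 FPKM in the N134-RHAMMB tumours, and 0.293, 0.400 and 0.923 FPKM in N134 tumours. Cpn2, a subunit of carboxypeptidase N, was at 5.47, 6.26 and 5.82 FPKM in the metastases, 0.0139, 0 and 0.0299 FPKM in the N134-RHAMMB tumours, and 0.0263, 0.0131 and 0.0137 FPKM in N134 tumours. Log2 differences against N134-RHAMMB tumours were 3.07 for Colec11 and 2.75 for Cpn2, and against N134 tumours 2.92 for Colec11 and 2.75 for Cpn2.

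Unlike Cpn2, the catalytic subunit Cpn1 was at 33.3, 29.2 and 33.0 FPKM in the metastases, 25.4, 25.04 and 24.0 FPKM in the N134-RHAMMB tumours, and 18.0, 14.7 and 17.1 FPKM in N134 tumours. It passed against N134 tumours at 0.90 (SE 0.11, adjusted p = 3.22e-04) and not against N134-RHAMMB tumours at 0.34 (SE 0.11, adjusted p = 0.122). Serping1, the C1 inhibitor, was at 34.9, 49.4 and 36.3 FPKM in the metastases, 18.6, 18.0 and 22.1 FPKM in the N134-RHAMMB tumours, and 25.3, 28.1 and 26.2 FPKM in N134 tumours. C1s1 was at 13.4, 20.1 and 12.6 FPKM in the metastases, 2.17, 3.83 and 5.33 FPKM in the N134-RHAMMB tumours, and 6.68, 4.84 and 6.79 FPKM in N134 tumours. Every metastasis was above every subcutaneous tumour for both. The log2 differences against N134-RHAMMB tumours were 0.99 (SE 0.14, adjusted p = 0.00121) for Serping1, 1.80 (SE 0.26, adjusted p = 0.00125) for C1s1, 0.95 for its near-identical copy C1s2 and 1.37 for the C1r-like protease C1rl. Against N134 tumours they were 0.57 (SE 0.14, adjusted p = 0.0335) for Serping1, 1.19 (SE 0.26, adjusted p = 0.0168) for C1s1, 0.68 for C1s2 and 1.33 for C1rl. Without N134 tumour 2 the calls against N134 tumours were lost for C1s1 (adjusted p = 0.0757) and C1s2 (0.0683). That of Serping1 was lost without N134-RHAMMB tumour 1 or any 1 N134 tumour (0.0561 to 0.119). Without N134-RHAMMB tumours 2 and 4, the adjusted p of C1s2 was 0.141 against the remaining N134-RHAMMB tumour and 0.0504 against N134 tumours, and that of Serping1 against N134 tumours was 0.0668.

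Cfd, factor D, the protease of the alternative pathway that adipocytes make, was lower in the metastases than in both subcutaneous groups. It was at 0, 0 and 0.0784 FPKM in the metastases, 7.81, 3.21 and 1.48 FPKM in the N134-RHAMMB tumours, and 7.16, 5.27 and 6.43 FPKM in N134 tumours. The log2 difference was -2.14 (SE 0.37, adjusted p = 0.00383) against N134-RHAMMB tumours and -2.82 (SE 0.37, adjusted p = 4.61e-04) against N134 tumours. The adipocyte genes Adipoq and Plin1 were listed at 0 in all 3 metastases and Adipoq was at 10.6, 1.75 and 0.822 FPKM in the N134-RHAMMB tumours, and 4.80, 1.59 and 5.26 FPKM in N134 tumours. Cfd is itself on the adipocyte list, and the other 8 genes summed to 24.4 to 28.2 FPKM in the metastases, 40.6 to 103 FPKM in the N134-RHAMMB tumours and 61.6 to 80.3 FPKM in N134 tumours. Except for Lpl, each gene of the list was lower in every metastasis than in any subcutaneous tumour. The margin was narrow for Retn. Fabp4, a fatty acid binding protein that endothelial cells also make, was at 13.1, 19.2 and 18.6 FPKM in the metastases, 71.9, 51.8 and 28.1 FPKM in the N134-RHAMMB tumours, and 55.4, 45.8 and 46.4 FPKM in N134 tumours. Lpl, lipoprotein lipase, was at 9.11, 6.55 and 7.06 FPKM in the metastases, 5.78, 4.88 and 6.79 FPKM in the N134-RHAMMB tumours, and 7.78, 7.99 and 7.46 FPKM in N134 tumours. For Lpl the metastases overlapped both subcutaneous groups, and every N134-RHAMMB tumour lay below every N134 tumour. Pparg, a regulator of fat cell genes, was at 1.66, 1.32 and 1.89 FPKM in the metastases, 3.29, 3.39 and 2.68 FPKM in the N134-RHAMMB tumours, and 3.05, 2.39 and 2.07 FPKM in N134 tumours. The part of adipocytes was not tested.

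The other genes lower in the metastases than in N134 tumours were Cd93, an endothelial and myeloid surface protein, and Itgb2, the beta chain of complement receptor 3. Cd93 was at 10.7, 9.48 and 10.8 FPKM in the metastases, 12.9, 12.3 and 15.1 FPKM in the N134-RHAMMB tumours, and 16.4, 19.5 and 15.1 FPKM in N134 tumours, a log2 difference of -0.66 (SE 0.14, adjusted p = 0.0102) against N134 tumours and -0.35 (SE 0.14, adjusted p = 0.217) against N134-RHAMMB tumours. The call was lost without N134 tumour 2, at adjusted p = 0.0539. Itgb2 was at 5.11, 1.98 and 3.68 FPKM in the metastases, 5.62, 3.95 and 5.41 FPKM in the N134-RHAMMB tumours, and 8.28, 12.7 and 5.96 FPKM in N134 tumours, a log2 difference of -1.12 (SE 0.30, adjusted p = 0.0402) against N134 tumours and -0.43 (SE 0.30, adjusted p = 0.551) against N134-RHAMMB tumours. Its call was lost in 7 of 9 fits without 1 library, all but those without metastasis 1 or N134 tumour 3, at adjusted p = 0.0528 to 0.153. Between N134-RHAMMB and N134 tumours 0 of the 21 further genes passed in limma, and 6 had an unadjusted p under 0.05, 5 lower and 1 higher, where 7.03% of all genes were lower and 5.8% higher.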

How the data were processed

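Total RNA of 9 tumour samples in 3 groups of 3 was sequenced, after extraction with a Qiagen column kit that keeps small RNA, per the labels' protocols. The submitters' processing notes name bcl2fastq 2.19, STAR 2.5.2 and Cufflinks 2.1.1 with the GRCm38 build, and give no role for each. For the library kit and strand, no setting is stated in the sources used here. The authors deposited FPKM values for 22053 rows of protein-coding genes, per the file headers. Counts are not used here, and FPKM falls when other genes take more of a library. 7 rows with a failed estimate and 102 rows repeating a symbol were dropped, which left 21944 genes. 40 rows with low-data status were kept.

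Values were log2(FPKM + 1), which understates changes of low genes, and the 12854 genes that reached 1 FPKM in 3 or more libraries entered limma 3.58.1 (R 4.3.3) with 1 model over all 9 libraries (6 residual degrees of freedom), an intensity trend, and Benjamini-Hochberg adjustment over all genes at 0.05. The fit was tested on simulated data. A value of 0 can be a failed estimate, so such a gene is said to be listed at 0 and gets no fold against that group. Starts in the table were raised by 1, which matched GENCODE M21 for 82.3% of 21737 rows. Depth came from the FPKM of 1 fragment in single-transcript genes 2000 to 6000 nucleotides long. Figures were drawn in Python 3.11.15.

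The 30 genes and all lists were chosen with earlier results of these data known. Complement genes that passed or averaged at least 5 FPKM in a group are given per library, and Cd55 is added after its values were seen. Alternatives were a pseudocount of 0.1, no filter, a mean of at least 5 FPKM, 2 other scalings, 2 other variance models, only the 2 groups compared, the replicate number as a block, and each library left out with the genes tested kept as over all 9. Applying the filter again after each left-out library, and leaving out N134-RHAMMB tumours 2 and 4, were added after seeing the data. Deviations from the group means correlated at -0.003 to 0.102 between same-numbered samples of different groups. Between differently numbered samples they correlated at -0.195 to 0.150. Such values cannot settle whether the numbers pair samples, and the main fit did not use them as a block. Some further complement genes that the rule selects are counted but not reported by name here.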

Additional observations from a re-analysis of the deposited data

How the results depend on the processing

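Settings are given for the metastases against N134-RHAMMB tumours (the first), the metastases against N134 tumours (the second) and N134-RHAMMB against N134 tumours (the third). Over the 28 alternatives, wherever a gene was still tested, the direction of each of the 81 log2 differences printed in the report stayed the same, and none of the called differences of the 30 genes changed sign. That covers printed values only. Among differences of the 30 genes not printed, the sign changed under some setting for Cd55 and Cfp in the first comparison and Cd55 in the second. In the third it changed for Hc, C4bp, C8a, Clu, Masp1 and Masp2. Of the further genes, it changed for 4 in the first, 1 in the second and 7 in the third. No direction is given for these differences. Which differences short of the threshold to print was decided after these sign changes were seen. Over single printed differences and alternatives, 2036 kept their side of the threshold, 106 lost the call and 17 gained it.

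The complement genes called, 20, 25 and 1 in the 3 comparisons, fell to 12 in the first and 15 in the second with a mean of at least 5 FPKM, under which fewer of them are tested, and all of those still tested kept their call. In the third comparison the 1 call, C3, was lost with no filter (0, with 10 at unadjusted p under 0.05), and library weights gave 10. With 1 library left out and the tested genes kept, the counts were 20 in each fit of the first comparison, 22 to 25 in the second and 0 to 1 in the third. How the low-value filter is used in these fits was not fixed beforehand, and keeping the 9-library genes was chosen after seeing that applying it again, with 1 metastasis left out, removed the 10 genes tested only through the metastases: then 10 were called in the first comparison and 13, 14 and 12 in the second without metastasis 1, 2 or 3, and the third gave 0 to 1 over all libraries.

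Genes called over the whole table, 843, 1276 and 25, were 347, 594 and 15 under the stricter filter and 1950 in the first and 2629 in the third with library weights. In the third comparison quantile normalization gave 38 and a fit of the 2 groups alone 169. Leaving out 1 library gave 650 to 1137, 882 to 1571 and 0 to 193, and with the filter applied again 356 to 775, 619 to 1174 and 0 to 191, with 369 in the first and 722 in the second without metastasis 1 and 8 and 2 in the third without N134-RHAMMB tumour 1 or 2. Without N134-RHAMMB tumours 2 and 4 there were 504 genes in the first comparison, and 1 gene and 0 complement genes in the third, where the single N134-RHAMMB tumour left is assumed to vary like the other groups. There the calls of C1qa, Cd59a, Fcna, Serping1, C1s2 and Itgb2 in the second comparison were lost too (adjusted p = 0.0504 to 0.0851). In that comparison calls were also lost for Cd59a and Fcna at a pseudocount of 0.1, C1qa and Fcna with no filter, Fcna under median-of-ratios scaling, C1qa with library weights and all of C1qa, Cd59a and Fcna with the 2 groups alone. Of the further genes, Itgb2 lost its call with no filter, the stricter filter and library weights, and C1s2, Itgb2 and Serping1 with the 2 groups alone. C2, of the 30 genes, gained a call with library weights, with the 2 groups alone, without the variance trend and without N134-RHAMMB tumour 2. Cfp gained a call without N134 tumour 3. The cause of these shifts was not tested.

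With the replicate number as a block, N134-RHAMMB tumour 4 is alone with its number and adds nothing. The block gave 646, 1097 and 1 genes and 20, 25 and 0 complement genes called in the 3 comparisons. Of the further genes it ended the calls of C1s2 in the first comparison and of C1s2 and Itgb2 in the second. Depth limits genes near 0: at 0.0279 to 0.0348 FPKM for 1 fragment in a 2 kb transcript, several subcutaneous values of C8a, C9 and C4bp are of the order of 1 fragment.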

Other observations

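Some genes differed widely among the metastases, and 3 of them, picked after their values were seen and not tested, are given here. Metastasis 2 was highest for Cd55 and lowest for Susd4 and Csmd2. Cd55 was at 1.06, 3.17 and 1.30 FPKM in metastases 1, 2 and 3. Susd4, a membrane protein with complement control domains, was at 9.17, 1.40 and 4.06 FPKM in metastases 1, 2 and 3, and Csmd2, another protein with such domains, at 2.80, 0.129 and 1.67 FPKM. Cr1l stayed within a narrow range in all groups, at 23.0, 23.0 and 18.3 FPKM in the metastases, 20.8, 19.7 and 20.4 FPKM in the N134-RHAMMB tumours, and 18.1, 18.8 and 18.3 FPKM in N134 tumours, and passed in no comparison. Kupffer cell genes did not move one way. Of 7 listed, 6 could be tested, and 1 was higher and 1 lower in the metastases against either subcutaneous group. Over all genes 5.04% were higher and 1.52% lower against N134-RHAMMB tumours, and 5.69% and 4.23% against N134 tumours. Clec4f reached the filter only through the metastases, so it had to differ. Clec4f was at 1.93, 5.22 and 1.69 FPKM in the metastases, was listed at 0 in each N134-RHAMMB tumour, and was at 0.149, 0 and 0 FPKM in N134 tumours. Folr2 was at 0.427, 0.525 and 0.501 FPKM in the metastases, 6.01, 4.43 and 3.39 FPKM in the N134-RHAMMB tumours, and 11.02, 9.29 and 3.34 FPKM in N134 tumours. Marco was at 0.211, 0.292 and 0.349 FPKM in the metastases, 1.90, 0.688 and 1.71 FPKM in the N134-RHAMMB tumours, and 3.33, 8.82 and 0.742 FPKM in N134 tumours.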
